A study of Drosophila melanogaster with 6 samples.

Results

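The larval serum proteins and fat body proteins of Drosophila melanogaster were followed through 6 listed genes: the serum protein genes Lsp1alpha, Lsp1beta, Lsp1gamma and Lsp2, and the fat body protein genes Fbp1 and Fbp2. Members were the probe sets (groups of short array probes read as 1 value) whose only gene symbol in the platform's probe table is one of these names. Lsp2, Fbp1 and Fbp2 had 1 such probe set each, so 3 of 18769 tested probe sets were members. The Lsp1 subunit genes were not analysed here.

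The study asked whether sugar in a mother's food bears on gene expression in her offspring. RNA of whole male larvae of the third instar of w1118, a laboratory strain with white eyes, was measured on 6 Affymetrix arrays. In 3 arrays the mothers had eaten food with 1 M sucrose for 7 days before mating, and in 3 control arrays their food held 0.15 M sucrose. Fathers were w1118 kept on control food, and offspring of either diet were raised on control food (25 C; moved to fresh food for the last 12 h). No transgene or mutation other than the strain's own white mutation is named in the labels. The titles call the arrays biological replicates, but the numbers of larvae and of separate crosses behind each one are not stated, so p-values measure the spread between these arrays. Different labels name different stages. Wandering larvae, which have left the food, are given in titles and descriptions, and the middle of the third instar, an earlier time, in the source names, characteristics and design. The titles also speak of rearing on the foods, where the characteristics give the diets to the mothers.

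Larval serum proteins are secreted by the fat body, the insect counterpart of liver and adipose tissue, and build up in the haemolymph (the insect's blood) during the third instar. They belong to the hexamerins, large assemblies related to haemocyanins that hold amino acids in store. Shortly before the puparium forms, the steroid hormone ecdysone makes the fat body take them up again, and they feed the building of adult tissues during metamorphosis.

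Probes of different genes bind with different strength, so brightness places a probe set on the measuring scale and says nothing of which gene has more RNA. Array medians of the tested probe sets were 51.5 to 55.2 in high-sucrose and 52.8 to 55.7 in control arrays, and the brightest tested probe set read 11771 to 12076 in high-sucrose and 12783 to 13046 in control arrays. Differences are on the log2(intensity + 16) scale, high-sucrose minus control, tested with limma over all probe sets, and a gene is said to rise or fall only where its Benjamini-Hochberg adjusted p was under 0.05. Actin control probe sets at the 5′ and 3′ ends, read together, give a rough view of RNA integrity. The 5′ set stood at 577, 737 and 555 in high-sucrose arrays and at 963, 723 and 935 in control arrays. The 3′ set stood at 5280, 5770 and 5372 in high-sucrose arrays and at 5980, 5957 and 6147 in control arrays. The 5′ reading alone thus mixes integrity with signal, and the part of either in the results was not tested. Fat body RNA was present on every array, with apolpp, the precursor of the lipid carrier of the haemolymph, at 8609 to 8771 in high-sucrose and 8976 to 9234 in control arrays. The yolk protein genes Yp1, Yp2 and Yp3, which the adult female fat body expresses, stayed under 67 in every array.

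None of the 3 measured members changed with maternal diet past the threshold. For Lsp2 and Fbp2 the 3 high-sucrose arrays all lay below the 3 control arrays, at 0.911 and 0.931 times the control level, and Fbp1 overlapped between groups. Of the members, 0 of 3 passed limma's adjusted threshold, which 0.623% of all tested probe sets passed (0.57% lower and 0.0533% higher). At an unadjusted p under 0.05, 2 of the 3 were lower and 0 higher, against 8.8% lower and 3.59% higher of all probe sets, and 0 members passed the adjusted threshold in any of 16 alternative settings. In a bulk sample of whole larvae, fewer fat body cells and less RNA per cell cannot be told apart.

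Lsp2 encodes the larval serum protein that forms assemblies of its own, apart from the LSP1 subunits. Its intensity was 10959, 12076 and 11118 in high-sucrose arrays 1 to 3, against 12411, 12672 and 12381 in control arrays 1 to 3. The groups did not overlap, with high-sucrose array 2 closest to the controls. The means were 11384 ± 605 and 12488 ± 160.3 (SD, n = 3 each), and the log2 difference was -0.13 ± 0.050 (SE), with a 95% interval from -0.25 to -0.02 (limma adjusted p = 0.307). As a ratio this interval runs from 0.843 to 0.985, and the smallest p that an exact permutation of 3 against 3 arrays can give is 0.1.

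Fbp2 encodes a fat body protein of the short-chain dehydrogenase family, related in sequence to alcohol dehydrogenase. It read 8393, 8796 and 8658 in high-sucrose arrays and 9444, 9285 and 9032 in control arrays. Here too every high-sucrose array was below every control array, and the spread within groups was small. The means were 8616 ± 205 and 9254 ± 208 (SD, n = 3 each). The log2 difference was -0.10 ± 0.044 (SE) with a 95% interval from -0.20 to -0.0035, a ratio of 0.869 to 0.998 (limma adjusted p = 0.385).

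Fbp1 encodes the fat body receptor that takes up LSP1 from the haemolymph, and its transcription is switched on by ecdysone late in the third instar. Its intensity was 5159, 4126 and 5405 in high-sucrose arrays and 5174, 5749 and 3995 in control arrays. High-sucrose array 2 and control array 3 stood apart as low in their groups, and the groups overlapped throughout. The means were 4897 ± 679 and 4973 ± 894 (SD, n = 3 each), with a log2 difference of -0.02 ± 0.14 (SE; limma adjusted p = 0.976). The 95% interval, from -0.32 to 0.29, is a ratio between 0.80 and 1.22.

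**Figure D1:**
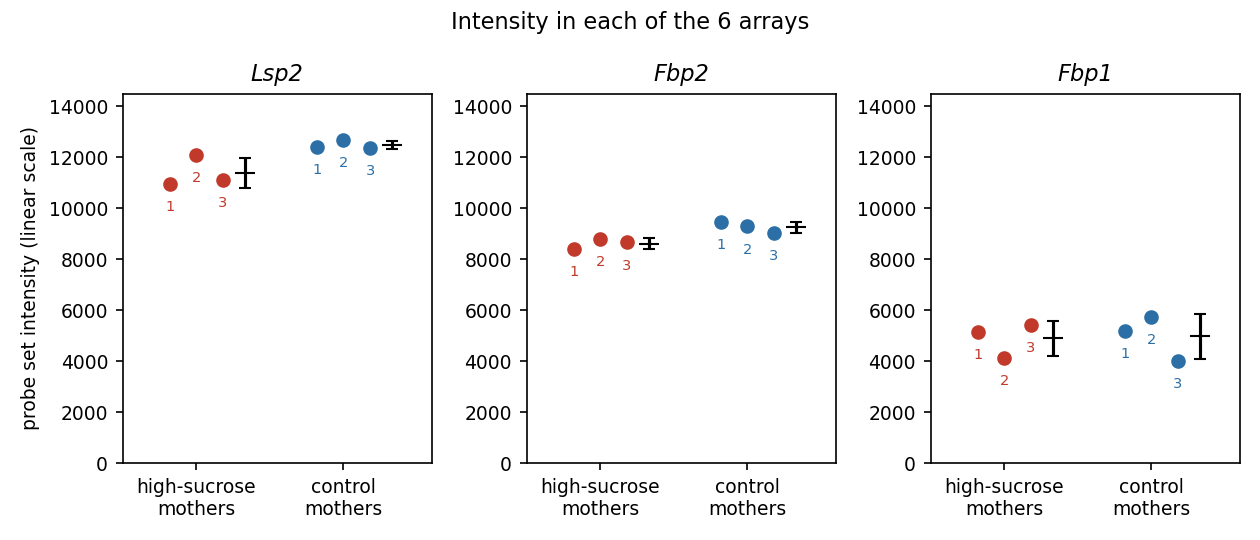
Probe set intensity (linear scale) of Lsp2, Fbp2 and Fbp1 in each array, high-sucrose at left and control at right of each panel; points carry the replicate number and the black bar gives the mean ± SD of 3 arrays. Lsp2 and Fbp2 do not overlap between groups, and Fbp1 spans 4126 to 5405 in high-sucrose and 3995 to 5749 in control arrays.

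Lsp2 and Fbp2 lay at the top of the intensity scale, where the deposited values carry no mark of saturation. Lsp2 was the brightest of all tested probe sets in high-sucrose array 2, and in the other arrays from 1 to 6 probe sets were brighter. Its value was 90.9%, 100% and 94.4% of the array's brightest tested probe set in high-sucrose arrays, and 95.1%, 99.1% and 96.9% in control arrays. Fbp2 stood at 69.6% to 73.5% of it in high-sucrose and at 70.7% to 72.6% in control arrays, and Fbp1 at 34.2% to 45.9% and 31.3% to 45.0%. So measured against the top of its own array, Fbp2 overlapped between groups. For Lsp2 the share in high-sucrose array 2 is fixed, since Lsp2 is itself the brightest there, and the other high-sucrose shares lay below all 3 control shares.

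The lower reading in high-sucrose arrays was common to bright probe sets. The median log2 difference was -0.03 over all tested probe sets. By bins of mean intensity it was -0.03 for the 5323 probe sets under 16. Above that it ran from -0.01 for 16 to 64, through -0.04 for 256 to 1024 and -0.07 for 1024 to 4096, to -0.08 for the 76 probe sets at 8192 or more. Of these 76, Lsp2 and Fbp2 included, 57 had every high-sucrose array below every control array (75%) and 0 the reverse, whereas 12.6% of all tested probe sets had every high-sucrose array lower and 5.96% higher. Within these 76, 16 probe sets had a more negative difference than Lsp2 and 27 a more negative one than Fbp2. The spread within groups also shrank toward the top, with a median within-group SD of 0.033 on the log2 scale at 8192 or more and 0.112 between 64 and 256. It was 0.055 for Lsp2, 0.033 for Fbp2 and 0.24 for Fbp1.

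Affymetrix arrays also carry control probe sets for RNA added in known amounts during preparation, of which cre is the most concentrated. The brightest cre probe set read 13544, 12849 and 13255 in high-sucrose arrays and 12769, 13811 and 13568 in control arrays, above Lsp2 on each array. High and low values fell in both groups. All 4 cre probe sets overlapped between groups, with log2 differences from -0.04 to -0.01. Values brighter than Lsp2 were thus recorded on every array. Of 14 probe sets for the other added RNAs, named bio, 13 lay below 0, with a median log2 difference of -0.06 and a range from -0.15 to 0.03. Several of the 14 read the same RNA, so they are not separate readings. All 14 overlapped between groups: control array 2 was the highest array in each, and control array 1 lay within or below the high-sucrose range. Whether the response to RNA amount flattened near Lsp2 was not tested.

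**Figure D2:**
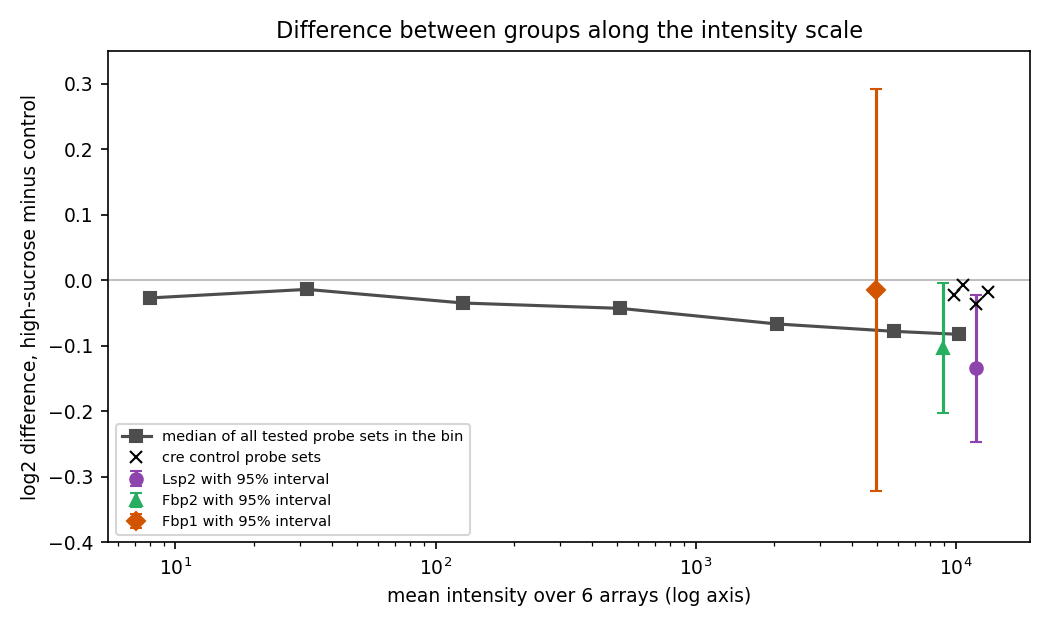
Log2 difference (high-sucrose minus control) against mean intensity over the 6 arrays (log axis): grey squares are medians of all tested probe sets in 7 intensity bins, coloured symbols the members with 95% intervals, and crosses the 4 cre control probe sets. The bin medians sink to -0.08 at the bright end, inside the intervals of Lsp2 (-0.13) and Fbp2 (-0.10).

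Scaling the arrays to each other changed these differences. The log2 difference of Lsp2 was -0.04 under quantile scaling, -0.11 under median centring and -0.03 under cyclic loess. That of Fbp2 was -0.02, -0.08 and -0.01 under the same scalings, and that of Fbp1 was 0.10, 0.01 and 0.07, opposite in sign to its value without scaling. None of these scalings brought a member past the threshold (limma adjusted p from 0.604 to 0.988).

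Fbp1 varied within each group more than the other members did, and its order of arrays was compared with that of genes that follow developmental stage. On the log2 scale, Fbp1 deviated from its own group's mean by 0.08, -0.24 and 0.15 in high-sucrose arrays 1 to 3 and by 0.07, 0.22 and -0.30 in control arrays 1 to 3. Lsp2 deviated by -0.05, 0.09 and -0.03 and by -0.01, 0.02 and -0.01, and Fbp2 by no more than 0.04 in any array. Among high-sucrose arrays Lsp2 was highest where Fbp1 was lowest, whereas among control arrays both had the same order, array 2 above array 1 above array 3.

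The glue genes encode the salivary proteins that fix the puparium to a surface and, like Fbp1, are under ecdysone control in the third instar. Sgs4 read 9656, 8559 and 9823 in high-sucrose arrays and 8509, 8934 and 7038 in control arrays. Sgs5 read 7004, 6616 and 8003 in high-sucrose arrays and 6127, 6825 and 4716 in control arrays. Both were lowest in high-sucrose array 2 and control array 3, the arrays where Fbp1 was lowest, and both kept the whole order of Fbp1 within each group. Sgs1, with 3512, 3075 and 3475 in high-sucrose and 2827, 2972 and 2330 in control arrays, was lowest in the same arrays.

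Of the 10 glue genes measured, 6 were lowest in the same pair of arrays as Fbp1 (Sgs1, Sgs3, Sgs4, Sgs5, Sgs7 and Eig71Ee), and 11.3% of all tested probe sets and 15.7% of those at or over the upper quartile of mean intensity were. The whole order within both groups was shared by 4 of the 10 (Sgs3, Sgs4, Sgs5 and Eig71Ee) and by 3.35% of all tested probe sets and 4.52% of the brighter ones. The new glue genes ng1, ng2 and ng3, also of the salivary gland, ran the other way: ng3 read 2087, 2673 and 1763 in high-sucrose and 1516, 1706 and 2046 in control arrays, highest where Fbp1 was lowest. Among 12 measured regulators of ecdysone response and fat body genes, 4 were lowest in the same pair of arrays: the ecdysone receptor EcR, its partner usp, the early response factor br and srp, the GATA factor that specifies fat body. Another 2 of the 12, Aef1 and svp, were highest in that pair, as were 16.9% of all tested probe sets. The factor br kept the whole order, with 1395, 1273 and 1397 in high-sucrose and 1110, 1231 and 972 in control arrays. These comparisons of array order were chosen after the values of Fbp1 had been seen, and probe sets on 1 array share that array's RNA and processing.

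Many metabolic genes of the fat body were highest in the arrays where Fbp1 was lowest. Of 18 measured fat body markers, 10 were highest in high-sucrose array 2 and in control array 3, where 16.9% of all tested probe sets and 27.1% of those at or over the upper quartile of mean intensity were highest. They include the fatty acid synthase gene FASN1, at 5740, 7166 and 5771 in high-sucrose and 6057, 6303 and 7408 in control arrays. Pepck1, a gene of glucose synthesis, read 5002, 5574 and 4956 in high-sucrose and 5407, 5524 and 5875 in control arrays. Among the 18, plin1, a lipid droplet protein gene, and srp were lowest there. Body wall muscle genes ran the same way as these markers, with 5 of 7 highest in that pair of arrays. Over the 6 arrays with group means removed, Fbp1 correlated with the median of the glue genes at r = 0.96, with the median of 16 puparium and prepupal genes at r = 0.93 and with the median of the fat body markers at r = -0.89. With group means kept these were 0.43, 0.74 and -0.72. With the median of the 12 regulators Fbp1 correlated at 0.32 with group means removed and at 0.27 with them kept. Several of the 16 puparium and prepupal genes were dim, which limits what their median can show: Eig71Ef to Eig71Ek and Edg84A read 19.31 or less on every array. Of the 16, 3 were lowest in the same pair of arrays as Fbp1 (18.75%). This held for 11.3% of all tested probe sets and 15.7% of those at or over the upper quartile. For Lsp2, correlations with the glue, puparium and fat body medians were -0.15, -0.47 and 0.74 with group means removed. With group means kept they were -0.67, -0.57 and 0.80. They are descriptions of 6 arrays that share scaling and RNA between genes.

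**Figure D3:**
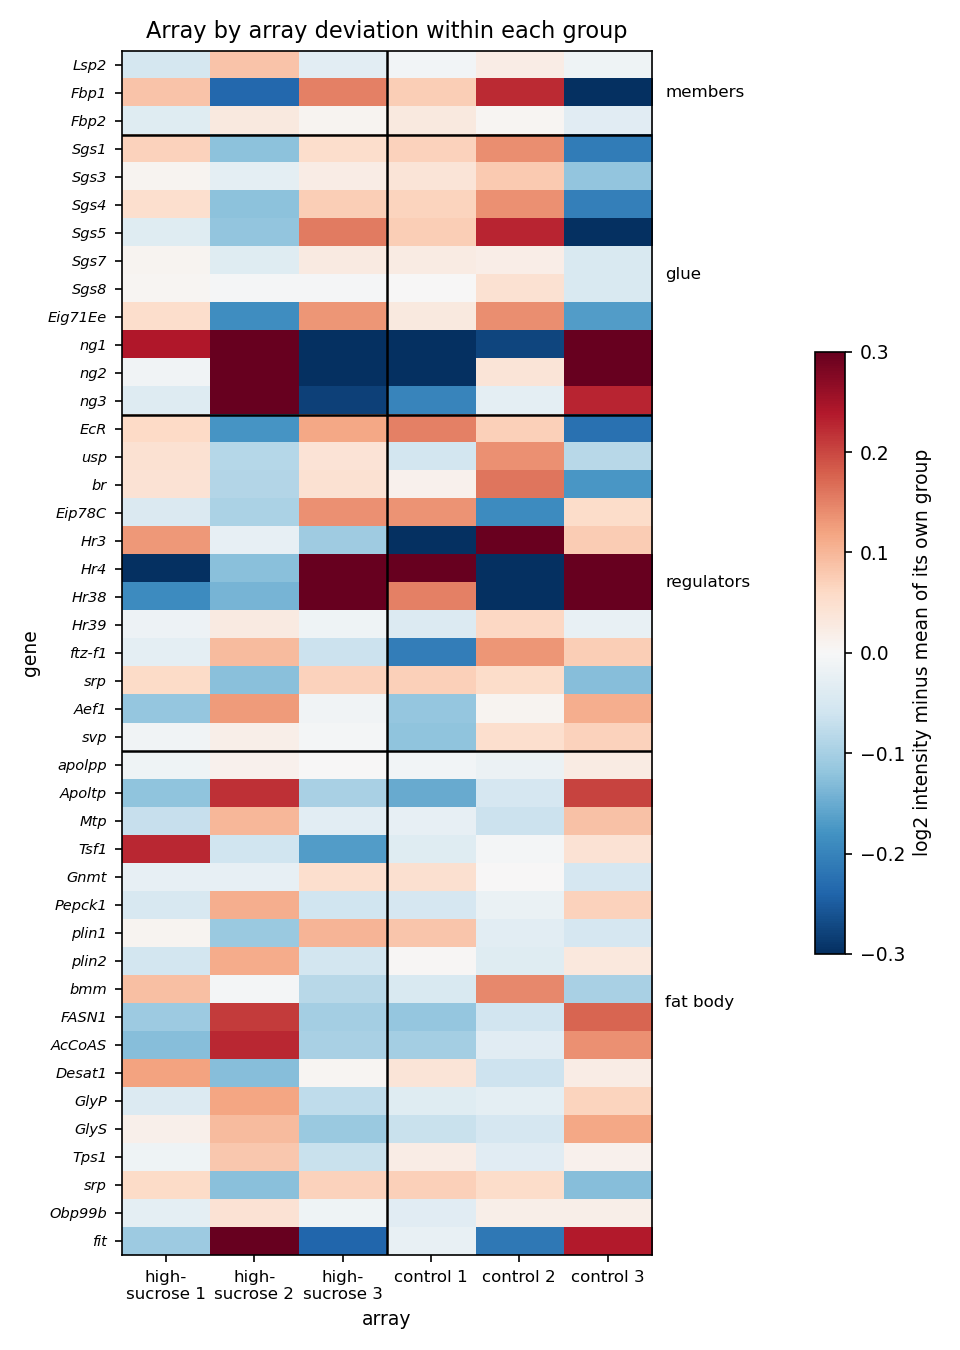
Log2 intensity of each gene minus the mean of its own group, for the 6 arrays (columns, high-sucrose left of the line, control right) and the members, glue genes, regulators and fat body markers (rows); colours stop at 0.3 either way. Fbp1 and most Sgs genes are blue in high-sucrose array 2 and control array 3, where FASN1, Apoltp and other fat body markers are red.

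Between the groups, the glue genes had a median log2 difference of 0.22, with 8 of 10 above 0, where all tested probe sets had a median of -0.03. None of the 10 passed, and 2 were higher and 0 lower at an unadjusted p under 0.05. Sgs1 averaged 3354 ± 242 in high-sucrose and 2710 ± 337 in control arrays (SD, n = 3 each; limma adjusted p = 0.202). The 12 regulators had a median of 0.12, 0 passed, and br averaged 1355 ± 70.7 and 1104 ± 129 (limma adjusted p = 0.185). Eip78C, an early ecdysone-response gene, had a log2 difference of 0.44 (limma adjusted p = 0.235). Eip78C was dim, at 18.07 or less on every array, so the size of this difference depends on the pseudocount of 16. The difference was 1.08 with a pseudocount of 1 and 0.16 with a pseudocount of 64. The 16 measured puparium and prepupal genes had a median of 0.01 and 0 passed, with 1 higher and 1 lower at an unadjusted p under 0.05. Within this list Edg78E, a pupal cuticle gene, stood at 51.2, 55.2 and 68.6 in high-sucrose and 70.8, 87.0 and 98.5 in control arrays, and Eig71Ed, a late ecdysone-induced gene, at 19.4, 22.5 and 28.6 in high-sucrose and 16.8, 8.78 and 10.8 in control arrays (limma adjusted p = 0.225 and 0.235). Of the list, 14 of 16 genes read 139 or less on every array, and the ecdysone-induced genes Eip55E and Eip71CD read 1033 or more on all arrays.

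Among other genes of the fat body, 0 of 18 markers passed in either direction. Their median log2 difference was -0.06, and 15 of 18 lay below 0, as did 11060 of all 18769 probe sets. At an unadjusted p under 0.05, 3 were lower and 0 higher. Gnmt, which uses up methyl groups by methylating glycine, read 4583, 4584 and 4827 in high-sucrose and 5670, 5492 and 5294 in control arrays (limma adjusted p = 0.0799). It passed with the dimmer probe sets left out (0.0389) and with robust variances (0.0434), and in no other alternative. Obp99b, an odorant-binding protein gene, read 11123, 11713 and 11249 in high-sucrose and 12334, 12787 and 12783 in control arrays, a log2 difference of -0.15 ± 0.044 (SE; limma adjusted p = 0.197), close to that of Lsp2 and at a like brightness. Under quantile scaling and cyclic loess the median of the list was 0.01 and 0.004, with 5 and 7 of 18 below 0. Under median centring it was -0.04, with 15 of 18 below 0.

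Other proteins secreted into the haemolymph gave the same kind of result. The list shares apolpp, Apoltp, Tsf1 and Obp99b with the fat body markers, so it is not a separate set of genes. Of 16 measured genes, 0 passed, 12 lay below 0 and the median was -0.10, which became -0.001 under quantile scaling and -0.02 under cyclic loess. Under median centring it was -0.07, with 12 of 16 below 0. The ferritin heavy chain gene Fer1HCH, whose product carries iron, read 6150, 6313 and 6169 in high-sucrose and 6873, 6910 and 7081 in control arrays (limma adjusted p = 0.154). Idgf2, an imaginal disc growth factor gene, averaged 1052 ± 67.1 and 1274 ± 86.5 (limma adjusted p = 0.139). Both had every high-sucrose array below every control array, as had 7 of the 16 genes, these 2 included. This held for 12.6% of all tested probe sets, for 28.1% of those with a mean of 1024 to 4096 and for 39.8% of those at 4096 to 8192.

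The haemocyanin superfamily links the serum proteins to the prophenoloxidases, copper enzymes of blood cells that make melanin. PPO3 fell, at 160, 160 and 134 in high-sucrose and 338, 346 and 253 in control arrays, a log2 difference of -0.96 ± 0.12 (SE; limma adjusted p = 0.0125), but it did not pass without control array 2 (0.102), without high-sucrose array 3 (0.0547) or without the intensity trend in the variances (0.136). PPO1 averaged 2238 ± 91.5 and 2650 ± 224 (limma adjusted p = 0.185) and PPO2 1955 ± 112 and 2249 ± 336 (limma adjusted p = 0.48). Of the relatives of Fbp2 in the dehydrogenase family, Pdh stayed under 12 in every array and scu averaged 2420 ± 140.3 and 2430 ± 135 (limma adjusted p = 0.98). Blood cell, muscle and salivary gland markers, as checks of tissue make-up, had medians of -0.05, 0.01 and 0.05, with 1 of 9, 0 of 7 and 0 of 7 passing. All salivary gland markers but fkh (log2 difference -0.04) and sage (0.24, limma adjusted p = 0.106) are also in the glue list. The blood cell list shares PPO1, PPO2 and srp with other lists. The blood cell gene that passed was He, at 540.4 ± 17.8 in high-sucrose and 716 ± 45.2 in control arrays (limma adjusted p = 0.0282), a call that was lost whichever array was left out. Of 10 testis markers, with a median of 0.26, Mst98Ca rose, at 732 ± 46.8 and 555 ± 23.3 (limma adjusted p = 0.0357), and this call was lost in the same way. All 10 lay above 0. At an unadjusted p under 0.05, 5 of the 10 were higher and 0 lower, against 3.59% higher and 8.8% lower of all probe sets. Under each of the 3 scalings 2 of the 10 passed, Mst98Ca and Mst98Cb. The part of these tissue markers in the results on Lsp2, Fbp2 and Fbp1 was not tested. Midgut digestion genes, by contrast, had a median of -0.54, and 8 of 12 fell, or 2 of 12 without control array 2. Those that fell were the serine protease genes Jon74E, Jon99Ci and Jon99Fi, the maltase genes Mal-A1 and Mal-A6, the amylase relative Amyrel, the lipase gene Lip3 and CG6295, from -0.29 for CG6295 to -1.04 for Lip3 on the log2 scale. Mal-A6 read 924, 990 and 840 in high-sucrose and 1697, 1817 and 1877 in control arrays.

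**Figure D4:**
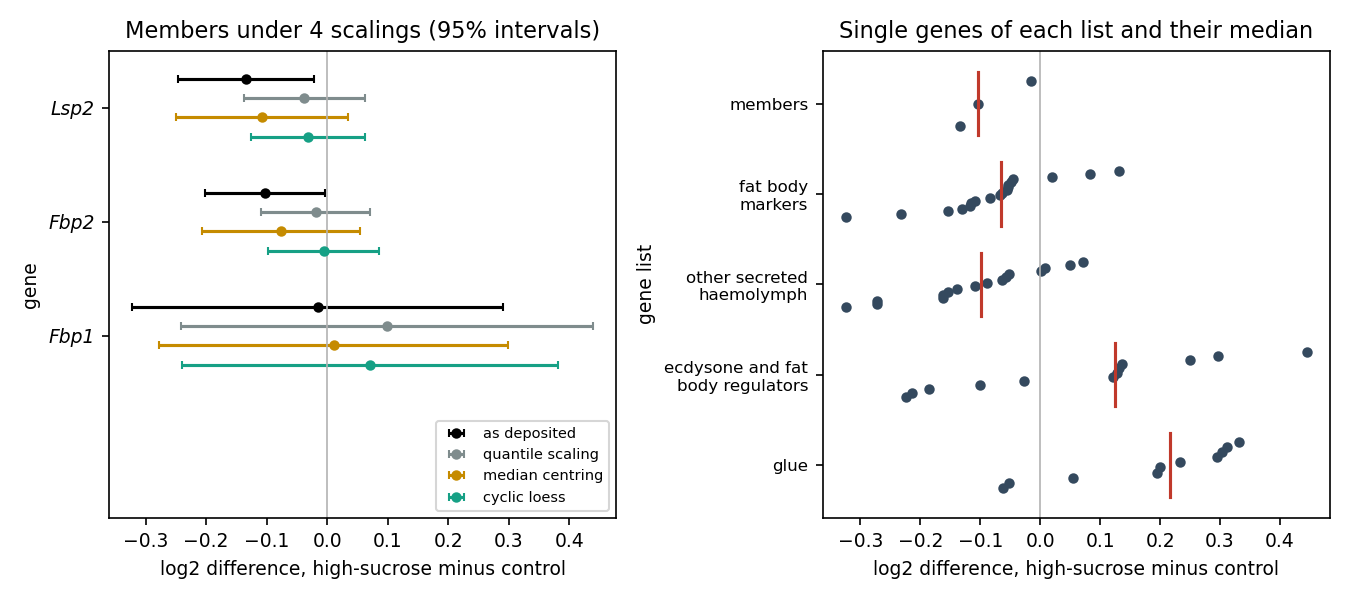
Left, log2 difference (high-sucrose minus control) of each member with its 95% interval, as deposited and under 3 scalings. Right, log2 differences of single genes (points) and list medians (red bars): -0.10 for the 3 members, -0.06 for fat body markers, -0.10 for other secreted haemolymph proteins, 0.12 for regulators and 0.22 for glue genes.

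Among 3954 genes at or over the upper quartile of mean intensity, those whose profile over the 6 arrays was most like the mean of the members were hpRNA:CR33940 (r = 0.99), AhcyL2 (0.98), CG30344 (0.98), CG12115 (0.97) and RpL29 (0.97). The gene most like Lsp2 was Cyp309a1 (r = 0.997), most like Fbp2 was Irk2 (0.99) and most like Fbp1 was gus (0.98). With 6 arrays such values are frequent: 228 genes had r over 0.9 with Lsp2, 125 with Fbp2 and 67 with Fbp1. Lsp2 and Fbp2 correlated with each other at r = 0.90, and at 0.63 with group means removed, whereas Fbp1 correlated with Lsp2 at -0.20 and with Fbp2 at 0.10.

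The protein-coding genes on either side of each member, 2 each way in the order of the RefSeq gene table, were read as well. Of 12 such neighbours 10 were measured and 0 passed. CG8100, next to Fbp1, read 293, 251 and 328 in high-sucrose and 188, 136 and 202 in control arrays. Its groups did not overlap, with high-sucrose higher, and the log2 difference was 0.69 ± 0.14 (SE; limma adjusted p = 0.0802, and 0.0249 to 0.258 over the alternatives). Fbp1 itself differed by -0.02 on the same scale. CG8100 was named after its values had been seen.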

How the data were processed

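RNA of whole larvae was labelled with biotin from 2 ug of total RNA and read on Affymetrix arrays, per the labels' protocols. What the authors deposited is a linear intensity for each probe set and array. The sources used here give neither its summary method, background correction and scaling nor any saturation mark. Of 18952 probe sets, 183 controls were kept out of the tests. By the platform's annotation, 13647 tested probe sets carry 1 gene symbol, 402 several and 4720 none. Gene IDs were matched to a RefSeq table of Release 6 plus ISO1 MT for names and neighbours.

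Groups follow the maternal diet in the characteristics. Limma 3.58.1 in R 4.3.3 compared them on log2(intensity + 16) with variances that follow intensity, and Benjamini-Hochberg adjustment over 18769 probe sets (threshold 0.05). A gene with several probe sets is represented by the brightest. Named genes are all members, up to 3 genes of smallest p per list, any that passed, and the genes most like the members; others were chosen after their values were seen. Members and lists were chosen with earlier results of these data known. The fit was tested on simulated data with independent noise and no shift along intensity. There 32.8% of changes of 0.2 on the log2 scale were recovered and 97% of those of 0.4. The differences of the members were smaller than 0.2. Alternatives were a replicate block, a filter, 3 scalings, 2 pseudocounts, 3 variance models and each array left out. The number of arrays limits the precision.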

Additional observations from a re-analysis of the deposited data

How the results depend on the processing

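No member passed the adjusted threshold in any of 16 alternatives. Lsp2 and Fbp2 kept a negative difference in all 16, from -0.18 to -0.03 and from -0.12 to -0.01. As their groups do not overlap, only the 3 scalings could have turned that sign, so the other settings do not test it. The difference of Fbp1 (-0.02) turned positive under quantile scaling (0.099), median centring (0.011), cyclic loess (0.071) and array weights (0.037), and ran from -0.16 to 0.10 with each array left out in turn; the cause was not tested. The count of all probe sets past the threshold, 117, became 4 without the intensity trend, 195 with robust variances and 13 to 163 with 1 array left out, lowest without control array 2 (31 without control array 3, 42 without high-sucrose array 1 and 35 without high-sucrose array 3). The replicate block gave 63. The numbers are not stated to pair arrays: same-numbered arrays deviated together at r = -0.072, 0.025 and -0.014, and 0 of 6 arrays correlated best with their own number. CG8100 passed with the replicate block (adjusted p = 0.0251) and under median centring (0.0249). Among 46 genes outside the members, CG8100 included, 730 alternative values held 46 calls lost, 4 gained (Gnmt and CG8100, 2 each) and 22 reversals, none of a call. Mst98Cb is not among these 46. Under quantile scaling and cyclic loess, apolpp turned to 0.019 and 0.034, plin1 to 0.018 and 0.019, FASN1 to 0.012 and 0.0072, Sgs7 to 0.075 and 0.049 and scu to 0.11 and 0.069, with scu at 0.021 under median centring. Yp2 was at -0.091 with array weights. With 1 array left out the ranges were -0.10 to 0.0073 for plin1, -0.19 to 0.0031 for FASN1, -0.0046 to 0.094 for Sgs3, -0.015 to 0.16 for Eip71CD, -0.053 to 0.039 for scu, -0.025 to 0.21 for Yp1 and -0.29 to 0.27 for Yp2. The listed genes past the threshold numbered 11, and 10 to 12 under the scalings and with a gene's probe sets averaged. With quantile scaling, added after the data were seen, 7 of 10 glue genes were lowest in the same arrays as Fbp1. The share of all tested probe sets under that scaling is not given here, so whether this count stands out cannot be read from it. How close Lsp2 lies to the top of the scale limits what its values can show.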
